A study of Mus musculus with 12 samples.

Results

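The genes described here are 43 imprinted genes of the mouse, taken by name from a list of genes whose transcript comes mainly from the maternal or the paternal chromosome or that lie in such a cluster. Of the 39179 gene identifiers counted in each library, 40 carried the symbol of a listed gene, and Kcnq1ot1, Peg13 and Snrpn were not analysed here. Dlk1 and Rtl1 were listed at 0 in all 12 libraries, and Rian and Ascl2, with 40 and 62 counts in total, fell below the filter on low counts. The other 36 genes were tested, and by background knowledge 18 of them are classed as expressed from the paternal allele and 15 from the maternal allele. These are general classes that were not tested in calvaria. Ube3a, counted as maternal, is expressed from both alleles in most cells other than neurons.

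The RNA came from the calvaria, which forms the roof of the skull, removed from C57BL/6 mouse embryos at embryonic day 17.5, with whatever tissue was attached. The groups were WT MS-275, WT vehicle, Runx2+/- MS-275 and Runx2+/- vehicle, with 3 libraries each. Without the transcription factor RUNX2 no osteoblasts form, and MS-275 (entinostat) inhibits class I histone deacetylases. Per the labels, WT and Runx2+/- mice of 8 weeks were mated, and pregnant dams received intraperitoneal MS-275 at 10 mg/kg on days 14.5 and 16.5 post coitum, so the embryos of the drug groups were exposed through the dam and collected 1 day after the last dose. The labels do not name the vehicle, which part of Runx2 is deleted, or whether libraries of 1 group are from different embryos or litters, so the p-values measure only the spread among these samples.

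Imprinted genes carry a DNA methylation mark that was set in the egg or in the sperm, and the marked and the unmarked copy differ in chromatin and in activity. They lie in clusters in which a long noncoding RNA, an insulator or a promoter mark controls several neighbours, and many act on fetal growth, the placenta, energy balance and the brain. Paternally expressed genes are often growth promoters and maternally expressed genes often growth restrainers. A count per gene cannot tell the parental alleles apart, and in an inbred strain the alleles carry no differing bases, so the values below are total transcript levels and say nothing of imprinting itself.

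The libraries held 13307456 to 19399760 counts in genes. Signs of library content moved with the drug. Reads that counting assigned to no gene feature made up 5.21 to 6.28% in WT MS-275, against 10.5 to 15.2% in WT vehicle. They made up 6.36, 8.65 and 22.2% in Runx2+/- MS-275, against 14.1 to 16.8% in Runx2+/- vehicle. Genes with a count numbered 20008 to 21001 in WT MS-275, against 22205 to 24071 in WT vehicle, and 20858, 21387 and 24666 in Runx2+/- MS-275, against 23112 to 24210.0 in Runx2+/- vehicle. Their part in the results was not tested. Replicate 3 of Runx2+/- MS-275 had a score of −106 on the first principal component, beside −108 and −111 in replicates 1 and 2 of WT vehicle. The other MS-275 libraries scored 83.9 to 140.0. Numbers of imprinted genes called by edgeR are therefore given with and without replicate 3 of Runx2+/- MS-275 where they rest on it. Unless stated, ratios, ranges and DESeq2 calls include that library. Runx2 itself held 88.2 to 131 CPM (read counts relative to the scaled size of the library) in WT MS-275, 42.4 to 46.1 CPM in WT vehicle, 34.1 to 93.5 CPM in Runx2+/- MS-275 and 32.8 to 65.3 CPM in Runx2+/- vehicle, ranges that overlap between the genotypes. The summed level of 10 osteoblast markers was 46465, 50849 and 44993 CPM in WT MS-275, against 7616, 5829 and 8378 CPM in WT vehicle. Genes called lower in WT MS-275 were found among neuron, epidermis, muscle and glia markers, among others, and these lists are described further below. In bulk tissue, fewer cells of a type and less RNA per cell cannot be told apart.

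In WT calvariae, 10 of the 36 imprinted genes tested differed between MS-275 and vehicle (27.8%), beside 19% of all 17967 genes tested. Magel2, Dio3, Peg10, Ppp1r9a, Mirg and Zdbf2 fell, 6 of 36 beside 9.33% of all genes tested. Slc22a18, Slc38a4, Sgce and Ube3a rose, 4 of 36 beside 9.67% of all genes tested. The log2 fold changes of these 10 ran from −3.01 to 1.58, and the median over the 36 genes was −0.14, beside −0.13 over all genes tested. Of the 18 paternally expressed genes 2 rose and 4 fell, and of the 15 maternally expressed genes 2 rose and 2 fell. The test was edgeR's quasi-likelihood test, and the adjusted p of the 10 genes lay between 0.0434 and 0.0485, close under the threshold of 0.05. DESeq2 called 14 genes, beside 40.2% of all genes, with 5 higher beside 18.5% and 9 lower beside 21.7%; at an unadjusted p under 0.05 edgeR had 17 beside 47.4% and DESeq2 18 beside 51.4%. The 4 genes that DESeq2 called beyond the 10 were Meg3, Usp29, Grb10 and Slc22a3. Without replicate 3 of Runx2+/- MS-275, edgeR called Meg3, Usp29, Grb10, Gnas and Mkrn3 beyond the 10, 15 in all beside 46.6% of all genes. Ranges of the WT groups did not overlap in 9 genes that were higher, beside 27.3% of all genes, and in 12 that were lower, beside 27.5%. The count of 10 fell to 0 when replicate 1 or 2 of WT vehicle, replicate 1 or 2 of Runx2+/- vehicle, replicate 1, 2 or 3 of WT MS-275, or replicate 2 of Runx2+/- MS-275 was left out, and was 6 without replicate 3 of Runx2+/- vehicle and 15 without replicate 3 of Runx2+/- MS-275. Scaling by library size alone moved the median of all genes to −0.95 and called 15 genes lower and none higher, in place of 6 lower and 4 higher. The sign of the fold change of each of the 10 genes held there and under the other 17 alternatives. Where the share of all genes called is not given beside a count, that count cannot be read as particular to the imprinted genes.

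**Figure D1:**
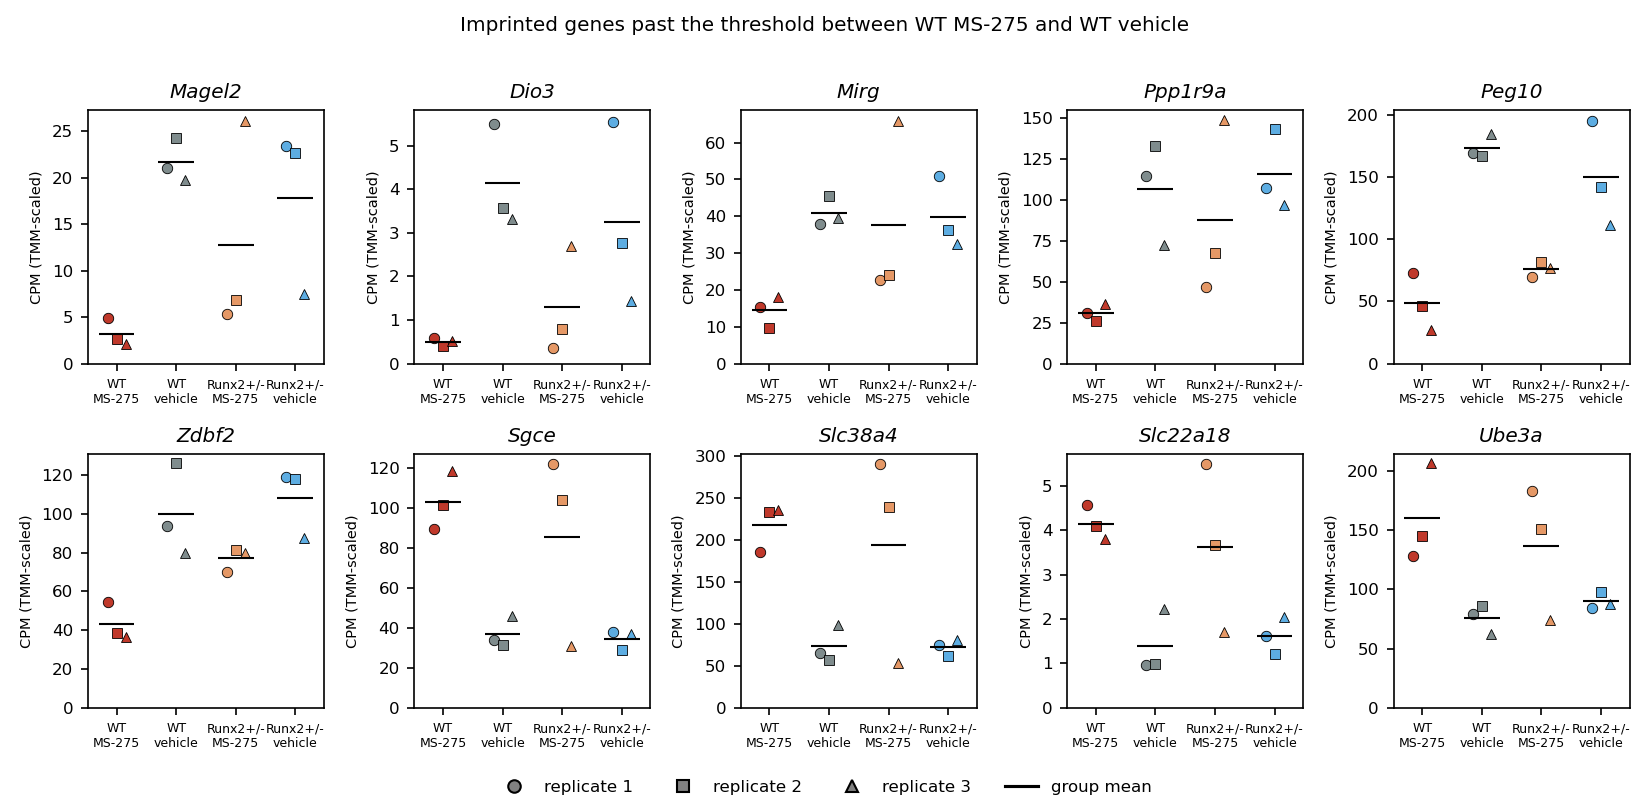
Scaled CPM of the 10 imprinted genes past the threshold between WT MS-275 and WT vehicle; each point is 1 library and each line a group mean (n = 3). The WT MS-275 points lie apart from the WT vehicle points in all 10 panels, and replicate 3 of Runx2+/- MS-275 lies beside the vehicle points for Sgce, Slc38a4, Slc22a18 and Ube3a and within the range of the other MS-275 points for Peg10 and Zdbf2.

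Start regions of 6 imprinted genes are shown here so that their base composition can be read beside the values; they were chosen after the values were seen, to span many and few CG steps among genes that fell and genes that rose, and to show a start region that neighbours share, and they are not the 6 with the strongest changes. The sequences are from RefSeq (GRCm38.p6), run 5′ to 3′ on the gene's strand from 250 bases before to 50 bases after the start, and have every CG step in capitals, the step that carries DNA methylation in mammals. Magel2 (chr7:62376729-62377028 on the plus strand, 10 CG steps), Dio3 (chr12:110278980-110279279 on the plus strand, 25 CG steps) and Zdbf2 (chr1:63273019-63273318 on the plus strand, 38 CG steps) fell in WT MS-275. Slc38a4 (chr15:97055907-97056206 on the minus strand, 5 CG steps) and Ube3a (chr7:59228500-59228799 on the plus strand, 29 CG steps) rose. The region of Usp29 (chr7:6730333-6730632 on the plus strand, 17 CG steps), a gene that did not pass the test, also holds the start of Peg3 on the other strand.
Magel2: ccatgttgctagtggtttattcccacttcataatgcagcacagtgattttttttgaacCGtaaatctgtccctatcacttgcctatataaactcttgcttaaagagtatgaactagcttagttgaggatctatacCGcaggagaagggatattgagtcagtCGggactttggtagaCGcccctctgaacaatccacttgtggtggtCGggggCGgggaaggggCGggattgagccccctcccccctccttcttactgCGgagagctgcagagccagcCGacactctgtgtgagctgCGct
Dio3: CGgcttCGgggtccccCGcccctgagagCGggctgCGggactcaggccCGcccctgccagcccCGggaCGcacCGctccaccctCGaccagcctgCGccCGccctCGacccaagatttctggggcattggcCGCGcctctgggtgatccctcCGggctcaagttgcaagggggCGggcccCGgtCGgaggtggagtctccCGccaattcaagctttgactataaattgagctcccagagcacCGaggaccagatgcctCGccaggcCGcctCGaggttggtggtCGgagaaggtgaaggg
Zdbf2: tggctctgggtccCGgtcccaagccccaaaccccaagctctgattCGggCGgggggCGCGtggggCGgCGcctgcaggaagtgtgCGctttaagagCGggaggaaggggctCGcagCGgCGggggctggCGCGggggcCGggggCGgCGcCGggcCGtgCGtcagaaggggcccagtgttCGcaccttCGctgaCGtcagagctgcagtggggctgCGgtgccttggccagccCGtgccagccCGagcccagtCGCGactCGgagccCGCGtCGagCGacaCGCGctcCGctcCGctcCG
Slc38a4: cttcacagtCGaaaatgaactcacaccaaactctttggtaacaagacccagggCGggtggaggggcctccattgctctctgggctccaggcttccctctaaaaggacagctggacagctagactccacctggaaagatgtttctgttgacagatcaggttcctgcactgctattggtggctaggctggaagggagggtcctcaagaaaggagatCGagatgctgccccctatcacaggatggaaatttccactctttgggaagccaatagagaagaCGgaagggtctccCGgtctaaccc
Ube3a: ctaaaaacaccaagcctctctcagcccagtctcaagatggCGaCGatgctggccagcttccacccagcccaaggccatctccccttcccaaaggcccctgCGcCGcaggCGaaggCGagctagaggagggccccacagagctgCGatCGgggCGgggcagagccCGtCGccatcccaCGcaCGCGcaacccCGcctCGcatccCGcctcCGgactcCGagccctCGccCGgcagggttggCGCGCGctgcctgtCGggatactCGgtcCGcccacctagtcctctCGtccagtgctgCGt
Usp29: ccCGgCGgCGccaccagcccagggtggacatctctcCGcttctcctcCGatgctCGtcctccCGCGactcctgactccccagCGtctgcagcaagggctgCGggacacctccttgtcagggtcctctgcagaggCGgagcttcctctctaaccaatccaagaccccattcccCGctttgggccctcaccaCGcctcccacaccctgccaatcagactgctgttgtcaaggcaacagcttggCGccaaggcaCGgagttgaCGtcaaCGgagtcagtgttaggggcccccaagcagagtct
By this choice, the genes that fell and those that rose each include a start region with more CG steps and one with fewer. The fewest among those shown that fell, 10 in Magel2, is below the median of the listed genes but above that of all promoters. Over the 35 listed genes with an entry in this table, the median was 13 CG steps (0 to 45), beside 7 over 32851 promoters of the same length. TGCCGC, the hexamer bound by the imprint-protecting zinc finger protein ZFP57 when methylated, was present on either strand in 7 of the 35 (20%), beside 11.6% of all promoters. TGTGGT, the core bound by RUNX factors, was present on either strand in 7 of the 35 (20%), beside 16.8%, and Magel2, Slc22a18 and Ppp1r9a are among those 7. The TGCCGC motif contains a CG step, and TGTGGT contains none. A match describes the letters only, not a bound site.

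In the cluster on chromosome 6 around Peg10, neighbours moved in opposite directions. Peg10 (chr6:4747306-4760517, plus strand in GENCODE M21, GRCm38) is a paternally expressed gene derived from a retrotransposon and required for the mouse placenta. It held 73.2, 46.4 and 27.1 CPM in WT MS-275, against 169, 167 and 184 CPM in WT vehicle. It held 69.5, 81.9 and 76.9 CPM in Runx2+/- MS-275, against 195, 142 and 111 CPM in Runx2+/- vehicle. Peg10 was the 1 gene of the 36 in which all 6 MS-275 libraries lay below all 6 vehicle libraries, a pattern seen in 3.27% of all genes tested. Its log2 fold change was −1.82 (SE 0.33, adjusted p = 0.0434) in WT and −0.97 (SE 0.32, adjusted p = 0.182) in Runx2+/-. Replicate 3 of Runx2+/- MS-275, whose score on the first principal component lay among those of vehicle libraries, had a Peg10 level within the range of the other MS-275 libraries. Without that library the log2 fold change in Runx2+/- was −0.98 (SE 0.37, adjusted p = 0.064).

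Sgce (chr6:4674350-4747207, minus strand) encodes epsilon-sarcoglycan, a membrane protein of the dystrophin-associated complex, and is also expressed from the paternal chromosome. Its annotated start lies 99 bases from that of Peg10, on the opposite strand. It held 89.5, 102 and 118 CPM in WT MS-275, against 33.7, 31.6 and 46.0 CPM in WT vehicle. The groups did not overlap, and the log2 fold change was 1.47 (SE 0.41, adjusted p = 0.0435). In Runx2+/- it held 122, 104 and 30.7 CPM in Runx2+/- MS-275, against 37.7, 29.0 and 37.0 CPM in Runx2+/- vehicle, high in replicates 1 and 2 of MS-275 and within the vehicle range in replicate 3. The log2 ratio of Peg10 to Sgce, each in RPKM (CPM per kilobase of exon), was −0.51 ± 0.92 in WT MS-275 and 2.91 ± 0.21 in WT vehicle (mean ± SD, n = 3 each; exact permutation p = 0.1, the smallest that 3 against 3 libraries can give). It was 0.73 ± 1.12 in Runx2+/- MS-275 and 2.76 ± 0.43 in Runx2+/- vehicle (exact permutation p = 0.1), and replicate 3 of Runx2+/- MS-275, at 2.00, lay below the lowest vehicle value of 2.26.

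**Figure D2:**
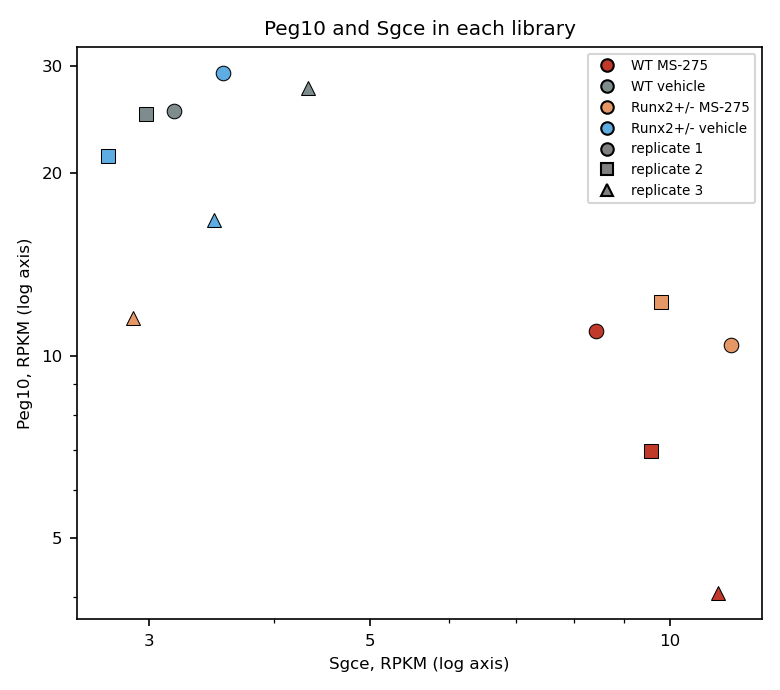
Peg10 against Sgce in RPKM on log axes, 1 point per library, coloured by group and shaped by replicate. WT MS-275 and replicates 1 and 2 of Runx2+/- MS-275 have high Sgce with low Peg10, the vehicle libraries the reverse, and replicate 3 of Runx2+/- MS-275 has low values of both.

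Ppp1r9a (chr6:4902917-5165661, plus strand) lies further along the cluster and encodes neurabin, an actin-binding protein of neurons that anchors protein phosphatase 1. It held 30.7, 25.9 and 36.2 CPM in WT MS-275, against 114, 133 and 72.6 CPM in WT vehicle. Every WT MS-275 value was below every WT vehicle value, with a log2 fold change of −1.78 (SE 0.40, adjusted p = 0.0434). It held 46.5, 67.2 and 148 CPM in Runx2+/- MS-275, against 107, 143 and 96.8 CPM in Runx2+/- vehicle, and replicate 3 of Runx2+/- MS-275 was the highest of the 12 libraries. Asb4, a substrate-recognition subunit of a ubiquitin ligase in the same cluster, had a log2 fold change of 0.08 (SE 0.34, adjusted p = 0.856) in WT.

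In the cluster on chromosome 12 between Dlk1 and Dio3, Dio3 and Mirg fell in WT MS-275. Dio3 (chr12:110279068-110281097, plus strand) encodes the deiodinase that inactivates thyroid hormones. It held 0.586, 0.409 and 0.518 CPM in WT MS-275, against 5.50, 3.58 and 3.31 CPM in WT vehicle. These are low levels, and the highest WT MS-275 value was below the lowest WT vehicle value. The log2 fold change was −3.01 (SE 0.74, adjusted p = 0.0434). In Runx2+/- it held 0.371, 0.798 and 2.70 CPM in Runx2+/- MS-275, against 5.55, 2.76 and 1.43 CPM in Runx2+/- vehicle, groups that overlap through their replicates 3.

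Mirg (chr12:109729764-109749460, plus strand) is a maternally expressed noncoding RNA that hosts microRNAs. It held 15.3, 9.82 and 18.2 CPM in WT MS-275, against 37.8, 45.4 and 39.5 CPM in WT vehicle. All 3 WT MS-275 libraries were below all 3 of WT vehicle, with a log2 fold change of −1.50 (SE 0.41, adjusted p = 0.0434). It held 22.8, 24.2 and 65.9 CPM in Runx2+/- MS-275, against 50.9, 36.3 and 32.3 CPM in Runx2+/- vehicle, and replicate 3 of Runx2+/- MS-275 was again the highest library of all. Meg3 (chr12:109541001-109571726, plus strand), the long noncoding RNA at the start of the same maternal transcription unit, held 287, 242 and 522 CPM in WT MS-275, against 1119.6, 1232 and 637 CPM in WT vehicle. Those groups did not overlap either, but with a log2 fold change of −1.51 (SE 0.53, adjusted p = 0.0598) it did not pass the test; its adjusted p was 0.0139 by DESeq2 and 0.016 by edgeR without replicate 3 of Runx2+/- MS-275, and both of these call it lower. It held 652, 646 and 1820.0 CPM in Runx2+/- MS-275, against 1155, 1668 and 709 CPM in Runx2+/- vehicle. The log2 ratio of Mirg to Meg3 in RPKM was −3.25 ± 0.31 in WT MS-275 and −3.24 ± 0.47 in WT vehicle (exact permutation p = 1), and −3.48 ± 0.05 in Runx2+/- MS-275 and −3.52 ± 0.60 in Runx2+/- vehicle (exact permutation p = 1.00). Rian, the small nucleolar RNA host between them, had 40 counts over the 12 libraries. Dlk1, a secreted and membrane-bound regulator of fat and muscle cell differentiation, and Rtl1, a retrotransposon-derived placental gene, were listed at 0 in each. Whether the 0 values of Dlk1 and Rtl1 come from their transcripts or from the annotation used in counting was not tested.

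Mirg hosts 14 hairpins of the RefSeq table, with 26 mature microRNAs and 25 different seeds (bases 2 to 8, which pair with target transcripts). The 4 of these that begin with the same 5 bases are shown with the seed in capitals, since miR-453 and miR-496a-5p have the same seed and the other pair differs from it within the seed. They lie on the plus strand of chromosome 12 (GRCm38.p6), the first at chr12:109735669-109735692 and the last at chr12:109743729-109743749.
miR-453: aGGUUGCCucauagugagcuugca
miR-496a-5p: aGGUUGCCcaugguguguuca
miR-409-5p: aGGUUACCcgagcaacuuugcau
miR-410-5p: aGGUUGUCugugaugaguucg
The libraries were not made for small RNA, so counts on microRNA identifiers come from longer transcripts over the hairpins and do not measure mature microRNAs. Of 58 microRNA identifiers from Meg3 to Mirg, 31 had any count, 482 in all. Their summed level was 0.521, 0.491 and 1.04 CPM in WT MS-275, against 1.95, 3.23 and 1.58 CPM in WT vehicle (exact permutation p = 0.1). In Runx2+/- it was 2.23, 1.04 and 4.66 CPM under MS-275 and 3.70, 3.06 and 1.22 CPM under vehicle, groups that overlap.

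The cluster on chromosome 7 that corresponds to the Prader-Willi and Angelman region of humans held a gene that fell and a gene that rose. Magel2 (chr7:62377010-62381640, plus strand), a regulator of ubiquitin ligases in protein trafficking, held 4.95, 2.62 and 2.07 CPM in WT MS-275, against 21.0, 24.2 and 19.7 CPM in WT vehicle. No WT MS-275 library came near the WT vehicle range, and the log2 fold change was −2.74 (SE 0.65, adjusted p = 0.0434). It held 5.39, 6.86 and 26.0 CPM in Runx2+/- MS-275, against 23.4, 22.6 and 7.44 CPM in Runx2+/- vehicle, with replicate 3 the highest library under MS-275 and the lowest under vehicle. Ndn (chr7:62346569-62350262, plus strand), which encodes necdin, a growth suppressor of neurons, starts 30441 bases before Magel2 and held 149, 108 and 133 CPM in WT MS-275, against 162, 187 and 173 CPM in WT vehicle. Its WT groups did not overlap, but the log2 fold change was −0.42 (SE 0.23, adjusted p = 0.157), smaller than that of Magel2. It held 136, 141 and 98.4 CPM in Runx2+/- MS-275, against 141, 180.0 and 109 CPM in Runx2+/- vehicle. The log2 RPKM ratio of Magel2 to Ndn was −5.75 ± 0.55 in WT MS-275 and −3.33 ± 0.11 in WT vehicle (exact permutation p = 0.1). It was −3.97 ± 1.50 in Runx2+/- MS-275 and −3.48 ± 0.66 in Runx2+/- vehicle (exact permutation p = 0.70), ranges that overlap. Replicates 1 and 2 of Runx2+/- MS-275, at −4.98 and −4.69, lay below the lowest Runx2+/- vehicle value of −4.21. Replicate 3 of Runx2+/- MS-275, at −2.24, lay above the highest, −2.92. Mkrn3, a makorin zinc finger gene whose human form restrains puberty, had a log2 fold change of −1.08 (SE 0.46, adjusted p = 0.0888).

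Ube3a (chr7:59228750-59311536, plus strand) encodes a ubiquitin ligase that is maternally expressed in neurons and expressed from both alleles in most other cells. It held 129, 145 and 207 CPM in WT MS-275, against 78.8, 85.7 and 62.0 CPM in WT vehicle. All WT MS-275 libraries were above all WT vehicle libraries, with a log2 fold change of 1.08 (SE 0.31, adjusted p = 0.0446). It held 183, 151 and 74.5 CPM in Runx2+/- MS-275, against 84.5, 97.7 and 88.0 CPM in Runx2+/- vehicle, high in replicates 1 and 2 of MS-275 and lowest of that genotype in replicate 3.

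The other genes past the threshold lie alone or in other clusters. Slc38a4 (chr15:96994820-97055956, minus strand), a transporter of neutral amino acids, held 185, 233 and 235 CPM in WT MS-275, against 65.1, 56.5 and 97.9 CPM in WT vehicle. The lowest WT MS-275 value exceeded the highest WT vehicle value, with a log2 fold change of 1.57 (SE 0.49, adjusted p = 0.0485). It held 289, 238 and 53.0 CPM in Runx2+/- MS-275, against 74.9, 61.1 and 80.1 CPM in Runx2+/- vehicle, again with replicate 3 of MS-275 apart from the other 2. Slc22a18 (chr7:143473736-143499334, plus strand), a maternally expressed transporter-like gene of the Kcnq1ot1 cluster, held 4.56, 4.09 and 3.80 CPM in WT MS-275, against 0.957, 0.98 and 2.22 CPM in WT vehicle. These are low levels, with 164 counts in all of WT MS-275 and 86 in all of WT vehicle. The groups did not overlap, and the log2 fold change of Slc22a18 was 1.58 (SE 0.49, adjusted p = 0.0485). It held 5.48, 3.67 and 1.70 CPM in Runx2+/- MS-275, against 1.62, 1.21 and 2.04 CPM in Runx2+/- vehicle.

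Zdbf2 (chr1:63273265-63314576, plus strand), a paternally expressed zinc finger gene linked to growth after birth in mice, held 54.6, 38.3 and 36.3 CPM in WT MS-275, against 93.9, 126 and 79.9 CPM in WT vehicle. Every WT MS-275 library was below every WT vehicle library, and the log2 fold change was −1.21 (SE 0.23, adjusted p = 0.0434). It held 70.2, 81.4 and 79.6 CPM in Runx2+/- MS-275, against 119, 118 and 87.3 CPM in Runx2+/- vehicle, also without overlap, although replicate 3 of MS-275 was close to the lowest value of WT vehicle, and the log2 fold change there was −0.49 (SE 0.22, adjusted p = 0.244). Like Peg10, Zdbf2 was among the 4 genes of 36 (11.1%) whose level in replicate 3 of Runx2+/- MS-275 lay within the range of the other MS-275 libraries and outside that of vehicle, with Kcnq1 and Trappc9, beside 9.19% of all genes; for 16 (44.4%) that library lay within the vehicle range alone, beside 47% of all genes.

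Markers of several other cell types also differed between the WT groups. The 10 neuron markers summed to 126, 78.3 and 393 CPM in WT MS-275, against 1340.1, 1667 and 167 CPM in WT vehicle, and to 293, 125 and 1054 CPM in Runx2+/- MS-275 and 956, 1877 and 366 CPM in Runx2+/- vehicle, with 3 of 10 called lower in WT. Replicate 3 of WT vehicle was within the neuron marker range of WT MS-275. Its Peg10 level was the highest of the WT vehicle libraries, and its Mirg level lay between the other 2. Its Magel2, Dio3, Ppp1r9a, Zdbf2 and Meg3 levels were the lowest of that group. Replicate 3 of Runx2+/- vehicle had the lowest neuron marker sum of its own group. It also had that group's lowest Peg10, Mirg, Magel2, Dio3, Ppp1r9a, Zdbf2 and Meg3 levels. The 8 epidermis markers summed to 15.4, 14.7 and 11.6 CPM in WT MS-275, against 4065, 1324 and 2882 CPM in WT vehicle, and to 8.17, 17.6 and 1748 CPM in Runx2+/- MS-275 and 2751, 1976 and 1161 CPM in Runx2+/- vehicle, with all 8 called lower in WT. The 6 lens markers summed to 6.84, 9.58 and 7.25 CPM in WT MS-275, against 897, 823 and 11.3 CPM in WT vehicle, and to 6.04, 5.19 and 649 CPM in Runx2+/- MS-275 and 640.1, 788 and 13 CPM in Runx2+/- vehicle, and the lens markers Cryba1, Crygs, Mip and Lim2 were each at 0 in at least 1 library. The 10 skeletal muscle markers summed to 1956, 565 and 257 CPM in WT MS-275, against 2734, 5207 and 2592 CPM in WT vehicle, with 3 of 10 called lower. In Runx2+/- they summed to 3069, 3494 and 3323 CPM under MS-275 and 4692, 3383 and 1193 CPM under vehicle, where the MS-275 values lie within the vehicle range. In the opposite direction, 7 of 10 osteoblast, 3 of 6 osteoclast and 2 of 7 chondrocyte markers were called higher in WT MS-275. Of the remaining lists, 4 of 6 glia and Schwann cell, 1 of 5 erythroid and 1 of 5 pituitary markers were called lower, 2 of 8 mesenchyme, 1 of 5 endothelial and 1 of 5 macrophage markers were called higher, and none of 6 adipocyte or 5 tested lens markers was called. The part of these tissues in the levels of the imprinted genes was not tested.

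**Figure D3:**
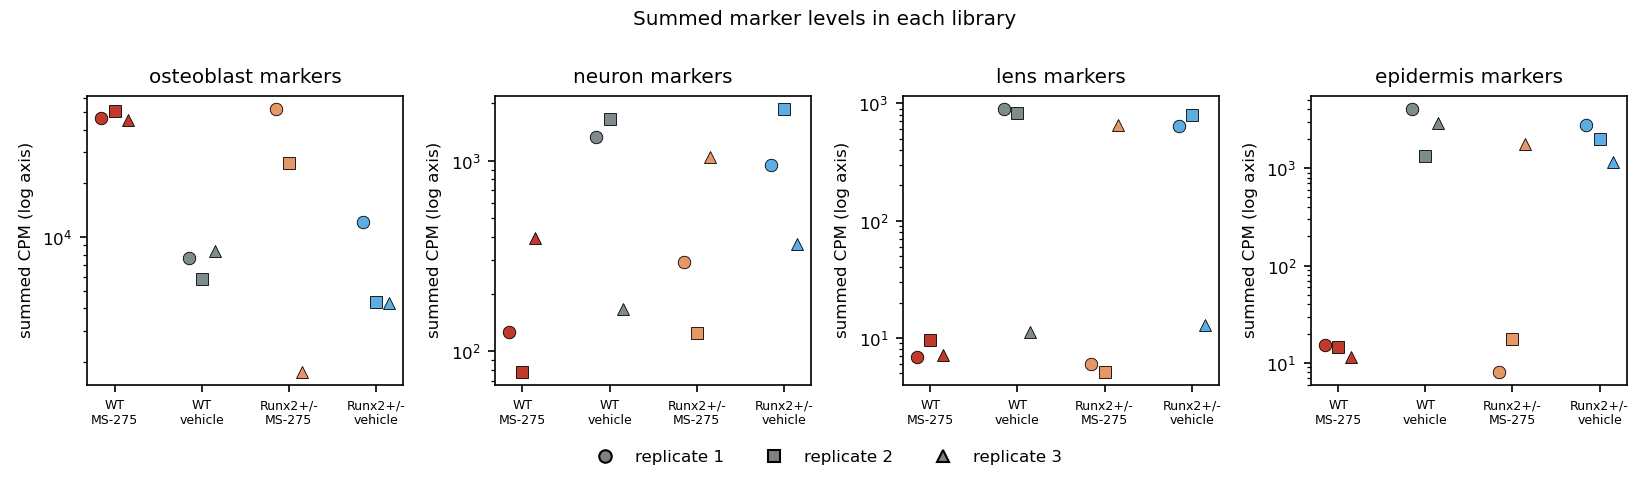
Summed scaled CPM of 4 marker lists on log axes, 1 point per library. Osteoblast markers are highest and epidermis markers lowest in 5 of the 6 MS-275 libraries, and replicate 3 of Runx2+/- MS-275 lies at vehicle levels or beyond in all 4 panels.

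None of the 8 imprinted genes with the highest levels was among the 10. Over the 12 libraries H19 averaged 2735 RPKM, followed by Nnat at 122, Grb10 at 121, Mest at 102, Plagl1 at 74.1, Peg3 at 62.9, Meg3 at 49.2 and Ndn at 38.7 RPKM. H19 (chr7:142575529-142578143, minus strand), a maternally expressed noncoding RNA that shares enhancers with Igf2 and restrains growth, held 10626, 10339.5 and 11723 CPM in WT MS-275, against 3019, 3344 and 8355 CPM in WT vehicle. The WT groups did not overlap, but replicate 3 of WT vehicle was far above the other 2, and the log2 fold change was 1.15 (SE 0.66, adjusted p = 0.18). It held 7890.2, 9550.5 and 2042 CPM in Runx2+/- MS-275, against 4239, 2487 and 7109 CPM in Runx2+/- vehicle, with the lowest value of all in replicate 3 of Runx2+/- MS-275.

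Grb10 (chr11:11930508-12038683, minus strand), an adaptor that damps insulin and IGF receptor signalling, held 1526, 1572 and 1302 CPM in WT MS-275, against 716, 658 and 903 CPM in WT vehicle. All WT MS-275 values were above those of WT vehicle, and the log2 fold change of 0.95 (SE 0.41, adjusted p = 0.0963) did not pass, while DESeq2 (adjusted p = 0.0415) and edgeR without replicate 3 of Runx2+/- MS-275 (adjusted p = 0.0129) call it higher. It held 1635, 1753 and 553 CPM in Runx2+/- MS-275, against 953, 632 and 964 CPM in Runx2+/- vehicle; without replicate 3 of Runx2+/- MS-275 its log2 fold change passed the test in that genotype, at 1.00 (SE 0.26, adjusted p = 0.0207). Its neighbour Ddc, the dopa decarboxylase gene, had a log2 fold change of −0.30 (SE 0.43, adjusted p = 0.578) in WT.

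Mest (chr6:30723547-30748465, plus strand), a paternally expressed hydrolase-like gene of mesodermal tissue, held 553, 550.2 and 399 CPM in WT MS-275, against 321, 299 and 513 CPM in WT vehicle. It held 433, 489 and 241 CPM in Runx2+/- MS-275, against 419, 251 and 349 CPM in Runx2+/- vehicle. Groups overlapped in both genotypes, and the log2 fold change in WT was 0.41 (SE 0.34, adjusted p = 0.342). Plagl1 (chr10:13060504-13131694, plus strand), a zinc finger transcription factor that regulates other imprinted genes in mice, held 633, 641 and 551 CPM in WT MS-275, against 481, 445 and 645 CPM in WT vehicle. It held 627, 715 and 531 CPM in Runx2+/- MS-275, against 654, 410.0 and 620.1 CPM in Runx2+/- vehicle. Its WT groups overlapped through replicate 3 of WT vehicle, and the log2 fold change was 0.22 (SE 0.27, adjusted p = 0.521).

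Peg3 (chr7:6703892-6730431, minus strand), a paternally expressed zinc finger gene of growth and maternal behaviour in mice, held 922, 773 and 758 CPM in WT MS-275, against 681, 649.7 and 977 CPM in WT vehicle. It held 946, 1308 and 636 CPM in Runx2+/- MS-275, against 891, 683 and 834 CPM in Runx2+/- vehicle. The groups overlapped, with a log2 fold change of 0.09 (SE 0.31, adjusted p = 0.828) in WT. Usp29, which starts 147 bases away on the opposite strand and encodes a ubiquitin-specific protease, averaged 1.31 ± 0.502 CPM in WT MS-275, against 8.59 ± 5.77 CPM in WT vehicle (SD, n = 3 each), with a log2 fold change of −2.70 (SE 0.92, adjusted p = 0.057). Zim1, the maternally expressed zinc finger gene beside Peg3, had a log2 fold change of 0.18 (SE 0.32, adjusted p = 0.656).

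Nnat (chr2:157560078-157562522, plus strand), which encodes the membrane proteolipid neuronatin, lies in an intron of Blcap. It held 237, 56.2 and 140.2 CPM in WT MS-275, against 349.9, 374 and 102 CPM in WT vehicle. It held 242, 122 and 289 CPM in Runx2+/- MS-275, against 202, 387 and 172 CPM in Runx2+/- vehicle. The spread within groups was wide and the groups overlapped, with a log2 fold change of −0.93 (SE 0.61, adjusted p = 0.233) in WT. Blcap had −0.55 (SE 0.26, adjusted p = 0.117). Nnat and Blcap are annotated on opposite strands of the same interval, as are Mest and Copg2, Zrsr1 and Commd1, Airn and Igf2r, Meg3 and Gm26906, Gnas and Nespas, Slc22a3 and Plg, Ddc and 1700042O10Rik, and Sfmbt2 and Gm13261. No source used here says whether counting took the strand into account, so the split of reads within these pairs is uncertain. Rian overlaps Gm26945 and Commd1 overlaps Gm28048 on the same strand, where strand cannot separate the reads. Reads shared by such genes may be missing from their counts, which was not tested.

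Of the rest, 5 genes missed the adjusted threshold at an unadjusted p under 0.05 beside Meg3 and Grb10. Slc22a3, an organic cation transporter, averaged 0.236 ± 0.222 CPM in WT MS-275, against 2.35 ± 2.77 CPM in WT vehicle, where 3 counts in a WT MS-275 library are 0.195 to 0.259 CPM, and had a log2 fold change of −3.29 (SE 1.19, adjusted p = 0.064). Phlda2, which restrains placental growth, averaged 1.11 ± 0.256 CPM in WT MS-275, against 0.291 ± 0.252 CPM in WT vehicle, with 1.94 (SE 0.81, adjusted p = 0.0868). Airn, the paternal noncoding RNA that overlaps Igf2r, averaged 33.3 ± 8.79 CPM in WT MS-275, against 20.0 ± 4.00 CPM in WT vehicle, with 0.74 (SE 0.31, adjusted p = 0.0911). The others were Usp29 and Mkrn3. Log2 fold changes without a call were −0.55 for Gnas, which encodes the stimulatory G protein alpha subunit, −0.41 for Trappc9, a vesicle transport subunit, −0.46 for Kcnq1, a potassium channel, and −1.19 for Rasgrf1, a Ras exchange factor. They were 1.09 for Commd1, a copper metabolism gene, 0.56 for Zrsr1, a splicing factor-like gene, 0.28 for Impact, a regulator of translation, 0.12 for Copg2, a coatomer subunit, and 0.03 for Sfmbt2, a polycomb-related gene.

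**Figure D4:**
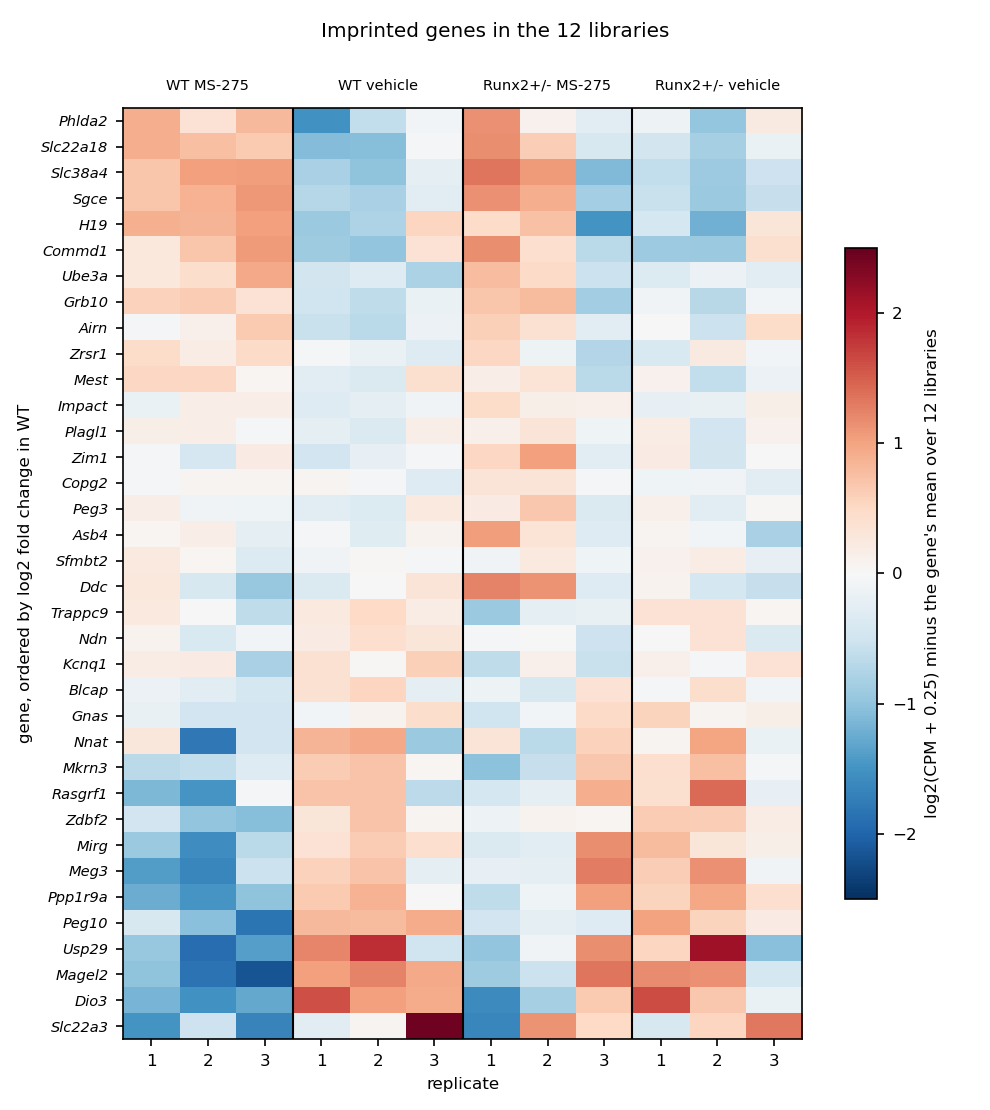
Log2(CPM + 0.25) of the 36 tested imprinted genes in the 12 libraries, minus each gene's mean, with genes ordered by log2 fold change in WT. Slc38a4 and Sgce near the top are high (red), and Peg10, Magel2 and Dio3 near the bottom low (blue), in 5 of the 6 MS-275 libraries; in replicate 3 of Runx2+/- MS-275 these colours are reversed except for Peg10, which is slightly blue.

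In Runx2+/- calvariae, no imprinted gene passed the test between MS-275 and vehicle by edgeR, and 0% of all genes did. At an unadjusted p under 0.05 there were 7 of 36, Slc22a18, Sgce, Ddc, Slc38a4, Copg2, Trappc9 and Peg10, beside 21% of all genes. DESeq2 called 3 genes, Sgce at 1.30, Slc38a4 at 1.42 and Peg10 at −0.97, beside 6.79% of all genes. The first 2 were higher, beside 4.52% of all genes, and 8 genes had an unadjusted p under 0.05 by DESeq2, beside 24.3%. Copg2 was the 1 gene whose 3 MS-275 libraries were all above the vehicle libraries, beside 6.33% of all genes, and Zdbf2, Trappc9 and Peg10 had all 3 below, beside 8.56%. Without replicate 3 of MS-275, edgeR called 13 of 36 (36.1%), beside 32.7% of all genes, and 18 had an unadjusted p under 0.05, beside 48.2%. Slc22a18, Zim1, Sgce, Grb10, Ddc, Slc38a4, Ube3a, Copg2 and Asb4 were then higher, 9 of 36 beside 18.5% of all genes. Ppp1r9a, Magel2, Mkrn3 and Dio3 were lower, 4 of 36 beside 14.2%. Among these 13 genes the largest increases were 1.87 (SE 0.24, adjusted p = 0.00214) for Slc38a4 and 1.71 (SE 0.20, adjusted p = 0.00197) for Sgce, and the largest decrease was −2.44 (SE 0.64, adjusted p = 0.0194) for Dio3. Of the 15 maternally expressed genes 6 were higher and 1 lower in that fit, beside 18.5% and 14.2% of all genes. Of the 18 paternally expressed genes 2 were higher and 3 lower. The maternal genes that were higher include Ube3a, and the classes were not compared by a test. Ddc, at 1.48 (SE 0.35, adjusted p = 0.0133) there, stands beside −0.30 in WT by the same fit.

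**Figure D5:**
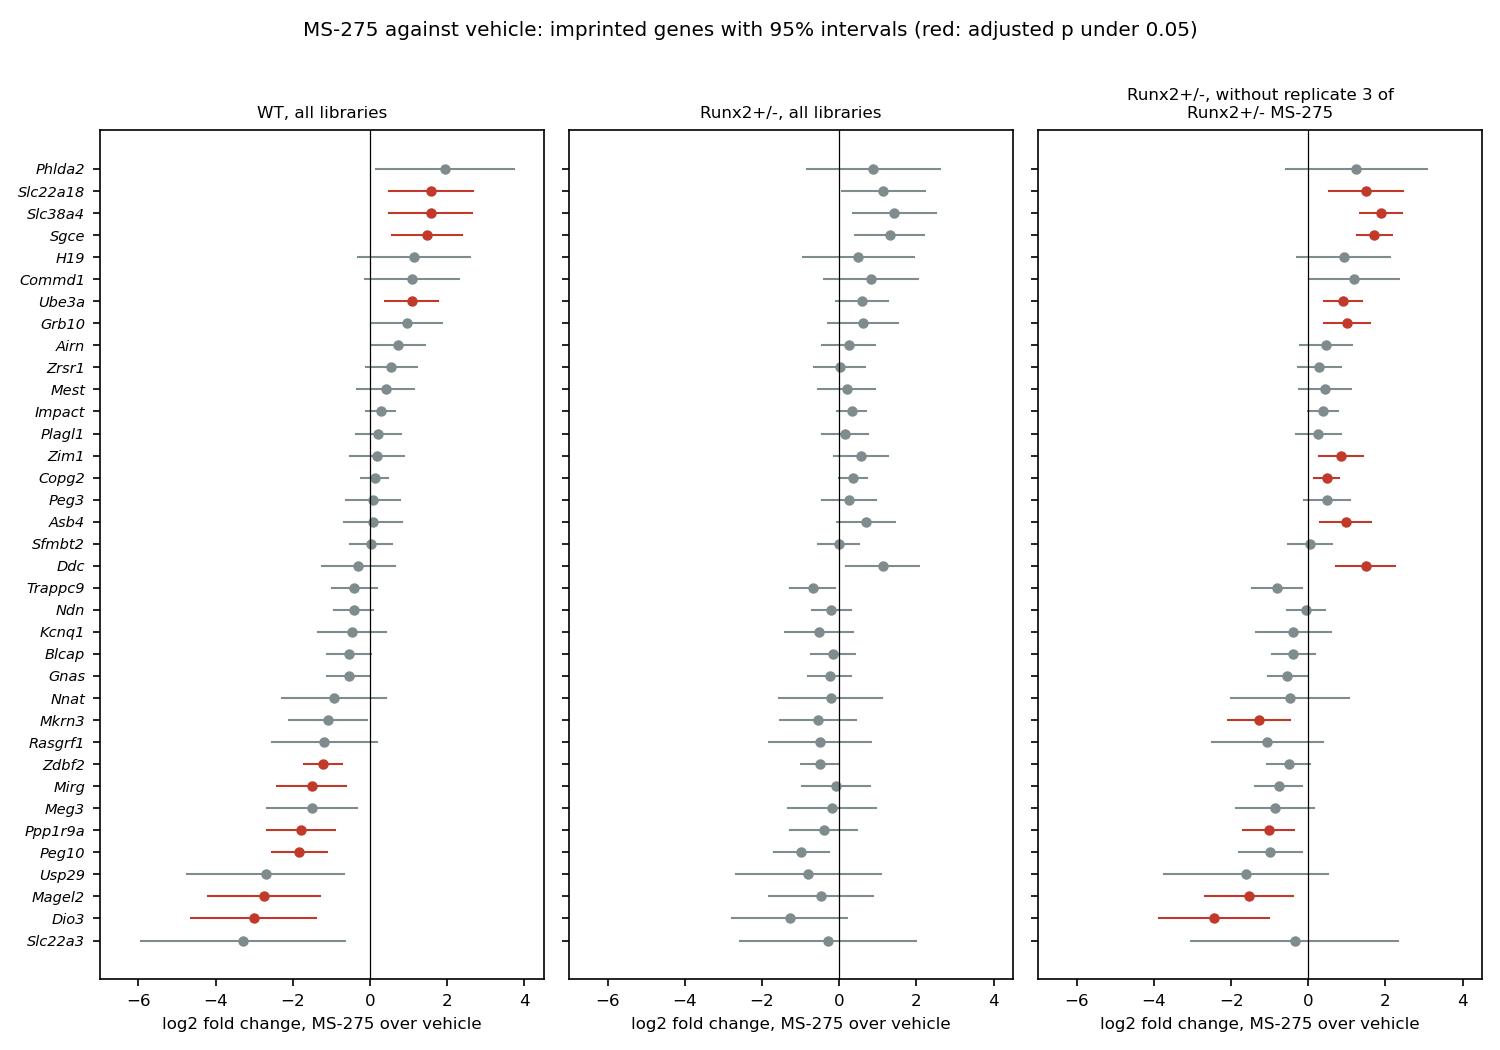
Log2 fold changes of MS-275 over vehicle for the 36 tested imprinted genes with 95% intervals, in WT, in Runx2+/- with all libraries, and in Runx2+/- without replicate 3 of MS-275. Red marks the 10, 0 and 13 genes with an adjusted p under 0.05 in the 3 panels.

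Across both genotypes, leaving out replicate 3 of Runx2+/- MS-275, 5 of the 36 genes had all 5 remaining MS-275 libraries above all 6 vehicle libraries (Slc22a18, Sgce, Grb10, Slc38a4 and Ube3a), beside 20.3% of all genes. In 7 genes all 5 lay below all 6 (Gnas, Ppp1r9a, Magel2, Mkrn3, Dio3, Peg10 and Mirg), beside 16.9% of all genes. With that library kept, Peg10 was the 1 such gene in either direction.

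The comparison of Runx2+/- vehicle with WT vehicle asks whether the labelled genotype alone goes with other levels of these genes. No imprinted gene passed by edgeR or DESeq2, and none had an unadjusted p under 0.05 by either tool, beside 0% of all genes called and 0.306% with an unadjusted p under 0.05 by edgeR and 0.39% by DESeq2. H19 had a log2 fold change of −0.09 (95% interval −1.52 to 1.35), Grb10 0.16 (−0.74 to 1.07) and Peg3 0.06 (−0.63 to 0.76). The narrowest interval of the 36 was that of Copg2, with −0.07 (−0.42 to 0.29).

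Between Runx2+/- MS-275 and WT MS-275, no imprinted gene passed by edgeR, with 0% of all genes called, and 6 had an unadjusted p under 0.05, beside 15.8% of all genes. DESeq2 called 5, Meg3, Zdbf2, Ppp1r9a, Magel2 and Mirg, all higher in Runx2+/- MS-275, beside 3.91% of all genes in either direction and 3.14% higher. Their edgeR log2 fold changes were 1.57, 0.84, 1.50, 1.99 and 1.38. All 3 libraries of Runx2+/- MS-275 were above the 3 of WT MS-275 in these 5 genes, beside 9.13% of all genes, and all 3 were below in 1 gene, H19, beside 7.52% of all genes. Without replicate 3 of Runx2+/- MS-275 the values were 0.89 for Meg3, 0.82 for Zdbf2, 0.88 for Ppp1r9a, 0.92 for Magel2 and 0.70 for Mirg; none passed, and 6 genes had an unadjusted p under 0.05, beside 7.7% of all genes.

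The interaction, which subtracts the WT response to MS-275 from the Runx2+/- response, had no imprinted gene past the threshold by edgeR or DESeq2, with 0% of all genes called by edgeR and 0.211% by DESeq2. By edgeR 5 genes had an unadjusted p under 0.05, beside 5.3% of all genes: Magel2 at 2.27, Ddc at 1.43, Mirg at 1.42, Ppp1r9a at 1.38 and Zdbf2 at 0.73, all with an adjusted p of 0.873. Without replicate 3 of Runx2+/- MS-275, Ddc was the 1 gene at an unadjusted p under 0.05, beside 2.79% of all genes, at 1.78 (SE 0.47, adjusted p = 1). A different drug response between the genotypes was therefore not shown for any of the 36 genes.

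Among 33 further imprinted genes outside the list, 30 were tested between WT MS-275 and WT vehicle, and 9 rose and 4 fell, beside 9.67% and 9.33% of all genes, with a median of 0.38 beside −0.13 for all genes. Without replicate 3 of Runx2+/- MS-275 the counts were 12 higher and 6 lower, beside 22.2% and 24.4% of all genes, and with scaling by library size alone 4 higher and 9 lower. In Runx2+/- none was called with all libraries, beside 0% of all genes, and 9 were higher and none lower without that replicate, beside 18.5% and 14.2%. Dcn (2.98), the collagen-binding proteoglycan decorin, Slc22a2 (2.77), a cation transporter, Tfpi2 (2.60), a protease inhibitor, Pon3 (2.29), a lactonase, Calcr (1.85), the calcitonin receptor, Tnfrsf23 (1.64), a decoy receptor, Ano1 (1.04), a chloride channel, Mcts2 (1.03), a retrogene, and H13 (0.62), a signal peptide peptidase, rose. Herc3 (−1.80), a ubiquitin ligase, Begain (−1.72), a postsynaptic protein gene, Cobl (−1.66), an actin nucleator, and Gatm (−1.16), an enzyme of creatine synthesis, fell. Calcr, Tfpi2 and Pon3 lie in the chromosome 6 cluster of Peg10, and Cobl lies beside Grb10. Dcn and Calcr are also on the mesenchyme and osteoclast marker lists. Igf2, the fetal growth factor that shares enhancers with H19, had a log2 fold change of 1.14 (adjusted p = 0.181), beside 1.15 for H19.

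Of 23 genes that maintain or erase imprints, 21 were tested. In WT 1 of the 21 was lower, beside 9.33% of all genes, and none was higher, beside 9.67%. It was Tet3, a methylcytosine dioxygenase, at −1.06 (adjusted p = 0.0434 by edgeR). The list's median was −0.51, beside −0.13 over all genes. Without replicate 3 of Runx2+/- MS-275, 2 of the 21 were higher and 10 lower in WT, beside 22.2% and 24.4% of all genes. In Runx2+/- with all libraries none of the 21 was called, beside 0% of all genes, and the median was −0.18, beside −0.04 over all genes. Without that replicate the median was −0.40 and 7 were lower, Dnmt1 (−0.94), the maintenance methyltransferase, Tet3 (−0.91), Dnmt3b (−0.77), Trim28 (−0.71), the corepressor of zinc finger proteins, Ctcf (−0.69), the insulator protein, Uhrf1 (−0.67) and Ehmt2 (−0.62), beside 14.2% of all genes. The median over all genes and the number of the 21 called higher in that fit are not given here. The −0.40 therefore cannot be read as particular to this list. All these values are transcript levels, and DNA methylation was not measured.

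The genes whose log2 CPM followed an imprinted gene most closely over the 12 libraries are given as a description, without a test. Much of the variance over these libraries is shared among genes, with 72.5% on the first principal component. Closest to H19 was Igf2, with a Pearson r of 0.992, then Slc25a24 (0.985) and Id3 (0.984). Closest to Peg10 were Cobl (0.986), Spsb4 (0.976) and Hfe2 (0.974). Closest to Meg3 were Wdr31 (0.979), Tmc4 (0.976) and Acr (0.975). In WT, Igf2 averaged 5238 CPM under MS-275 and 2379 CPM under vehicle. The Runx2+/- libraries averaged 2987 CPM under MS-275 and 2403 CPM under vehicle.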

How the data were processed

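Total RNA of E17.5 mouse calvariae was sequenced from a stranded library kit, per the labels' protocols. The authors deposited raw counts per Ensembl gene identifier for each library, made with Trimmomatic, Bowtie2, SAMtools and HTSeq, per the submitters' processing notes. Those notes name the human build GRCh38.p7, although the deposited identifiers are mouse. The annotation release and strand setting are not given in the sources used here. Symbols and coordinates were looked up by identifier in GENCODE M21 (GRCm38), which named 37607 of 39179 identifiers; the 1572 others held 0.217% of the counts. Gene counts per library were 13307456 to 19399760. Reads assigned to no gene feature (5.21 to 22.2%), ambiguous reads (3.25 to 4.78%) and multiply aligned reads (14 to 20.1%) stayed out of library sizes.

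The test was edgeR 4.0.16 (R 4.3.3; quasi-likelihood, robust, TMM scaling with factors 0.598 to 1.33, filterByExpr) on 4 group means, with 8 residual degrees of freedom, a common biological coefficient of variation of 0.442 and Benjamini-Hochberg adjustment over 17967 genes in each of 5 comparisons, at 0.05. SE is the absolute log2 fold change divided by the square root of the F statistic. CPM are TMM-scaled, and RPKM divides them by merged exon length. A level of 3 counts is 0.12 to 0.279 CPM, counting error only. Ratios within pairs used an exact two-sided permutation test over libraries. DESeq2 1.42.0, other scalings, no filter, 2-group fits, a replicate block and leaving out each library were alternatives, and the 2 vehicle groups alone with a replicate block were added after seeing the data. Deviations of same-numbered vehicle libraries from their group means had correlations of 0.22, 0.75 and 0.81, the first of them weak. Where an MS-275 library was involved, such correlations ran from −0.66 to 0.28. These values are not independent, since deviations within a group are tied by their shared mean. The labels do not say what a number marks, and the main fit did not pair libraries. Values in every library are given for genes past the threshold and for the 8 imprinted genes of highest mean RPKM. The genes and lists were chosen with earlier results of these data known.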

Additional observations from a re-analysis of the deposited data

How the results depend on the processing

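For MS-275 against vehicle in WT, the count of 10 imprinted genes was 10 with DESeq2 size factors, 15 with library size alone, 14 with DESeq2, 16 with only the 2 groups fitted, and 0 with no filter on low counts (29218 genes tested); leaving out 1 library gave 0 to 15. The replicate block gave 0 there, without all groups being paired, and changed no other call; the vehicle groups alone with the block also gave 0. In Runx2+/- DESeq2 called 3 and leaving out 1 library gave 0 to 13; between genotypes under MS-275 DESeq2 called 5. The counts of 0 for the remaining comparisons held under every alternative run. Counts given here without the share of all genes called cannot be read as particular to the imprinted genes. The adjusted p of the 10 genes reached 0.132 to 0.360 over the alternatives. Signs reversed in 25 of the gene values. With library size alone in WT these were Peg3 −0.71, Zim1 −0.66, Mest −0.38, Copg2 −0.72, Plagl1 −0.59, Asb4 −0.73, Airn −0.12, Zrsr1 −0.28, Impact −0.56 and Sfmbt2 −0.77, and in Runx2+/- Zim1 −0.03, Grb10 −0.05, Ube3a −0.06 and Copg2 −0.18. Sfmbt2 was −0.03 in WT with no filter and with only the 2 groups. Leaving out 1 library in WT gave −0.02 to 0.30 for Peg3 (−0.0046 without replicate 1 of WT MS-275), −0.02 to 0.19 for Asb4 (−0.0035 without replicate 2 of WT MS-275) and −0.11 to 0.19 for Sfmbt2 (−0.00011 without replicate 3 of Runx2+/- vehicle), and in Runx2+/- −0.76 to 0.18 for Mirg (0.13 and 0.15 without replicate 1 of vehicle and replicate 2 of MS-275). Apart from the scaling and the number of genes tested, the cause was not tested. Low counts limit genes such as Dio3, Slc22a3, Slc22a18, Phlda2, Rian and Ascl2. For Rian, the part of the overlap with Gm26945 in its low count was not tested.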
